A study of Mus musculus with 8 samples.

Results

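The open chromatin of mouse embryonic fibroblasts (MEFs) was compared with that of the same kind of cells after 10 days of reprogramming. Accessible DNA was mapped by ATAC-seq. The assay uses a transposase that cuts and tags DNA where nucleosomes leave it free, so that peaks of reads mark open sites. All peaks of the MEF list (56514, covering 46.9 Mb) and of the day 10 list (35226, covering 28.2 Mb) entered the comparison, 91740 of the 176445 peaks in the 4 lists of the series. A MEF peak was called lost when no day 10 peak overlapped it by at least 1 bp, a day 10 peak was called gained when no MEF peak overlapped it, and every other peak was called kept.

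Both groups were of the strain C57BL/6J-OG2, which carries a GFP reporter driven by Pou5f1 sequence, and both were labelled wildtype. MEFs came from mid-gestation embryos and were uninfected (day 0). The day 10 cells were MEFs within 3 passages, infected with pMXs retroviruses for the OSKM set, which is Klf4, Sox2, Myc and Pou5f1 (the OCT4 gene), and with a FLAG control vector, and days were counted from the first infection. They were grown in embryonic stem cell (ESC) medium with vitamin C at 50 µg per ml, whereas MEFs were grown in fibroblast medium, so that factors, vector, medium and time in culture cannot be told apart. No sorting of the infected cultures is described. The day 10 list therefore describes a bulk population, in which fewer cells with an open site cannot be told apart from a less open site in every cell. Each group had 2 libraries but 1 deposited peak list, so no test between groups was possible. Intervals are 95% Wilson intervals (Newcombe intervals for differences) and cover counting error only.

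Fibroblasts keep their identity through distal regulatory sites, many of which are bound by AP-1, a dimer of FOS and JUN proteins, together with TEAD and RUNX factors. OCT4, SOX2 and KLF4 each recognise a short DNA sequence and can bind DNA within nucleosomes. Promoters rich in CpG dinucleotides are open in most cell types, whereas distal sites differ widely between them.

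The windows below show what such sites look like. They are the 200 bp around the midpoint of distal peaks nearest to genes of the lists described further on, taken in order of score among those with a match (mm10, plus strand, 5′ to 3′), with matches in capitals. The first 3 were lost, and the capitals mark an AP-1 match (TGACTCA or TGAGTCA). Matches to other motifs are not marked. The window assigned to Thbs2, a matrix glycoprotein gene, lies at chr17:14610888-14611087, intergenic and 82.8 kb downstream of the gene's start, and holds 2 matches. That of Twist2, a mesenchymal transcription factor gene, lies at chr1:91692908-91693107, intergenic and 108 kb upstream. That of Fn1, the fibronectin gene, lies at chr1:71763616-71763815, intergenic and 110 kb upstream. None of the 3 peaks overlapped a day 5 or an ESC peak.
Thbs2, lost: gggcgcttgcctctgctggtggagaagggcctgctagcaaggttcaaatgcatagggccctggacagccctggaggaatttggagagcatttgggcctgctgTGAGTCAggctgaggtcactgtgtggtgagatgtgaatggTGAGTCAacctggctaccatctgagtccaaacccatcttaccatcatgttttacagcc
Twist2, lost: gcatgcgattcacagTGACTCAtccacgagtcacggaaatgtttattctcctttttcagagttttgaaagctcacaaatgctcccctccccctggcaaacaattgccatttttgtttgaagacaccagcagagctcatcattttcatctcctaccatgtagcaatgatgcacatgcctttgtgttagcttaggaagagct
Fn1, lost: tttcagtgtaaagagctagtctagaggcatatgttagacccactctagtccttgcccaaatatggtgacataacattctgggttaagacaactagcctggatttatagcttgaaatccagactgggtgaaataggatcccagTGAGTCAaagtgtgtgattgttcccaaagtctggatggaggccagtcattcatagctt

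The next 3 windows were gained. Capitals mark a KLF match (CCACACCC) in the window of Epcam, which encodes an epithelial adhesion molecule, at chr17:87603114-87603313, intergenic and 32.1 kb upstream of its start. They mark a SOX match (CCATTGT) in the other two. The window of Dsp, the gene of the desmosomal protein desmoplakin, lies at chr13:38109090-38109289, intergenic and 41.7 kb upstream. That of Sall1 lies at chr8:89241844-89242043, intergenic and 198 kb upstream. Sall1 encodes a zinc finger transcription factor expressed in pluripotent cells. All 3 peaks were already in the day 5 list, and the Dsp peak overlapped an ESC peak. By score the Sall1 peak was of middle strength, ranking 16769 of the 35226 day 10 peaks, while those of Epcam and Dsp ranked 3909 and 4641.
Epcam, gained: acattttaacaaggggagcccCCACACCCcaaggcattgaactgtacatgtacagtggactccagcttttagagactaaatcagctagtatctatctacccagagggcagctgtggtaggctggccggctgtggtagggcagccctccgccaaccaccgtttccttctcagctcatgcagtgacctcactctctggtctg
Dsp, gained: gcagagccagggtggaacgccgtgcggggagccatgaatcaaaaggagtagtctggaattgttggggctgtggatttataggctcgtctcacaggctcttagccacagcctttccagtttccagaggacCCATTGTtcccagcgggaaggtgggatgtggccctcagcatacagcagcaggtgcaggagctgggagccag
Sall1, gained: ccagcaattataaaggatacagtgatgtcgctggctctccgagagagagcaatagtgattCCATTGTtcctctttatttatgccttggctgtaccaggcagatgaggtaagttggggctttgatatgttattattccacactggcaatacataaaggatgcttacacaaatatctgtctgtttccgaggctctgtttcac

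Most open sites of fibroblasts had no counterpart at day 10, and a smaller set of sites had appeared. Of MEF peaks, 35798 were lost (63.3%, interval 62.9% to 63.7%) and 20716 were kept. Of day 10 peaks, 14468 were gained (41.1%, 40.6% to 41.6%) and 20758 were kept. For each gained peak there were thus more than 2 lost ones. The lists differed in length, and the libraries' read numbers are not given, so the part of sequencing depth in the difference was not tested. With only the 35226 highest-scoring MEF peaks, 50.5% were lost and 50.3% gained, and lists of equal length must give nearly equal shares. Few calls hung on a narrow gap between peaks, since 296 lost and 295 gained peaks lay within 400 bp of a peak of the other list. Of the kept MEF peaks, 77.2% overlapped a day 10 peak over at least 50% of both.

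Loss and gain were both concentrated away from start sites. A promoter peak lay within 1 kb of an annotated transcription start site, a proximal peak at 1 to 5 kb and a distal peak farther away. At promoters 3827 of 17111 MEF peaks were lost (22.4%, 21.7% to 23.0%), against 5969 of 7757 proximal peaks (76.9%) and 26002 of 31646 distal peaks (82.2%, 81.7% to 82.6%). Of day 10 peaks, 1326 of 14586 were gained at promoters (9.09%, 8.64% to 9.57%), 2510 of 4332 at proximal sites (57.9%) and 10632 of 16308 at distal sites (65.2%, 64.5% to 65.9%). The distal share exceeded the promoter share by 59.8 percentage points for loss (59.0 to 60.5) and by 56.1 for gain (55.2 to 57.0). Distal peaks made up 72.6% of lost and 73.5% of gained peaks, but 56.0% of all MEF peaks and 46.3% of all day 10 peaks. The distal share was the higher one on 20 of 20 chromosomes with at least 50 peaks, for loss as for gain. Over all positions, the lost share ranged from 56.4% on chromosome X to 68.6% on chromosome 18, and the gained share from 32.5% on chromosome 19 to 47.9% on chromosome 12.

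The gradient continued with distance, as the plot by distance shows. Peaks that covered a start site were lost in 13.1% and gained in 4.44% of cases. Beside a start site, up to 1 kb away, the shares were already 66.9% and 38.6%. They reached 79.3% and 60.6% at 5 to 20 kb and 91.5% and 83.0% beyond 100 kb. Among distal peaks, position within a gene made less difference, with 83.0% of intronic, 81.7% of intergenic and 74.4% of exonic MEF peaks lost and 67.3%, 63.3% and 61.0% of day 10 peaks gained.

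**Figure D1:**
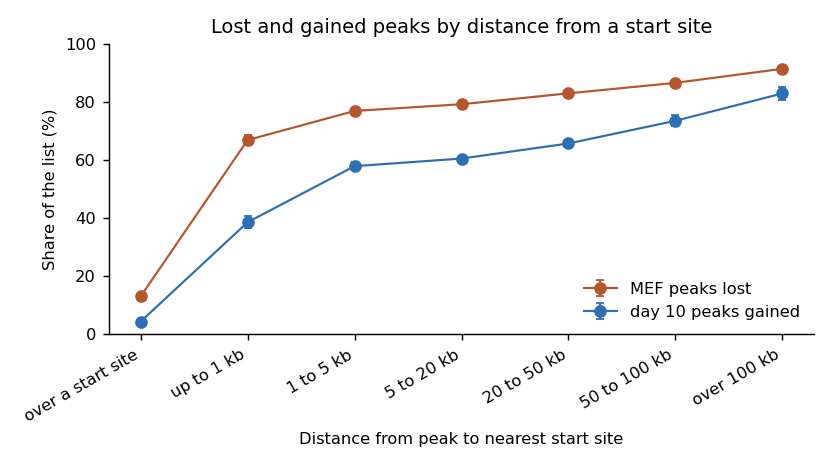
Share of MEF peaks lost and of day 10 peaks gained (y axis, %) by distance from the peak to the nearest start site (x axis). Points are shares and bars 95% Wilson intervals, and both curves climb from 13.1% and 4.44% over a start site to 91.5% and 83.0% beyond 100 kb.

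Promoters also differed by base composition. A promoter peak was called CpG-rich when the 200 bp around its midpoint had at least 50% GC and a CpG content of at least 0.6 of that expected from its bases. Of CpG-rich promoter peaks, 6.74% were lost (6.26% to 7.26%) and 1.17% gained (0.969% to 1.40%). Of other promoter peaks, 42.5% were lost (41.4% to 43.7%) and 23.6% gained (22.4% to 24.8%). Within the distal peaks the mean GC content was 44.5% in lost against 48.7% in kept MEF peaks, and 42.7% in gained against 48.8% in kept day 10 peaks. Gained distal peaks also held more repeat-masked sequence, 18.2% on average against 11.9% in kept ones.

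Weak peaks were lost or gained more often than strong ones. The authors' score is 10 times the −log10 of the peak's q-value, rounded down, in all but 2 peaks of the MEF list. From the lowest to the highest decile by score, the lost share went from 90.4% to 14.8% and the gained share from 65.7% to 6.61%. Of the 1000 highest-scoring peaks, 72 were lost and 23 gained. The gap between positions was present at every score. In the highest decile 53.9% of distal (51.0% to 56.7%) but 1.74% of promoter MEF peaks (1.38% to 2.18%) were lost, and 44.3% of distal (39.6% to 49.2%) but 0.697% of promoter day 10 peaks (0.457% to 1.06%) were gained. Averaged over the deciles, a calculation chosen after the data were seen, the distal share exceeded the promoter share by 42.0 points for loss and 48.1 points for gain.

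**Figure D2:**
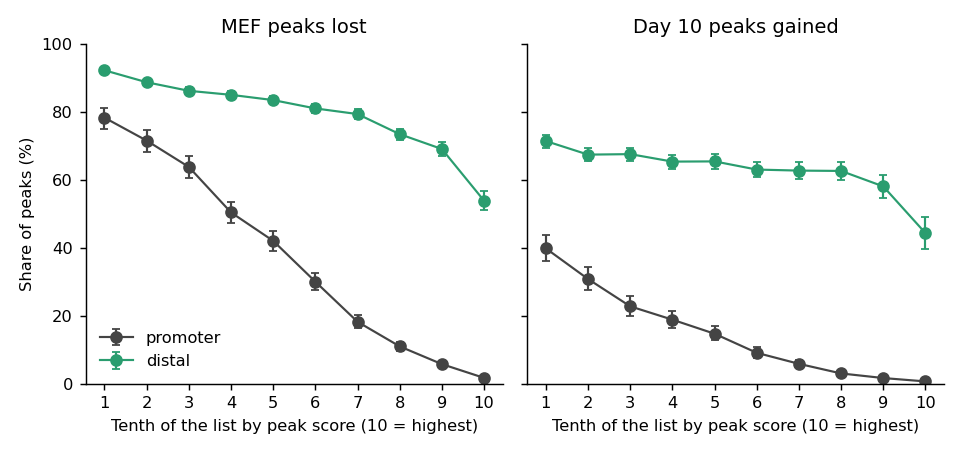
Share of MEF peaks lost (left) and of day 10 peaks gained (right) on the y axis (%), by decile of each list's peak score (x axis, 10 is the highest), for promoter and distal peaks. Bars are 95% Wilson intervals. The distal curve lies above the promoter curve in every decile, and in the highest the lost shares are 53.9% and 1.74%.

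The sequences of lost and gained distal sites differed. Motifs were sought in the central 200 bp of each peak, on either strand, and windows of the same length 1 kb to each side gave the background. Matches to so short a sequence are descriptions and do not show binding. An AP-1 match (TGACTCA or TGAGTCA) was found in 24.1% of lost distal MEF peaks (23.6% to 24.6%) and in 16.1% of kept ones (15.2% to 17.1%), against 3.29% and 3.18% beside the peaks. The difference was 8.02 points (6.91 to 9.09). Among gained distal peaks 5.40% held an AP-1 match and among kept day 10 peaks 13.6%. The TEAD words (ACATTCCA, ACATTCCT, GCATTCCA and GCATTCCT) were found in 9.22% of lost and 6.89% of kept distal MEF peaks, and the RUNX words (TGTGGTTA and TGTGGTTT) in 4.90% and 3.70%. The AP-1 share was highest in the strongest of the lost peaks, at 32.6% in the highest quintile by score against 16.8% in the lowest.

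At gained sites, SOX and octamer matches were more frequent than at kept ones. A SOX match (CCATTGT or CCTTTGT) was found in 16.7% of gained distal peaks (16.0% to 17.5%) and 9.94% of kept day 10 peaks (9.19% to 10.7%), a difference of 6.80 points (5.73 to 7.84), with 7.10% and 6.75% beside them. The octamer of OCT4 (ATGCAAAT) was found in 4.67% of gained and 1.92% of kept peaks, a difference of 2.74 points (2.20 to 3.27), with 1.46% and 1.26% beside them. In gained peaks the SOX share went from 12.7% in the lowest quintile by score to 20.4% in the highest, while the octamer share stayed between 4.18% and 5.41%. A composite word of both, as bound by the SOX2-OCT4 pair, was rare, in 19 of 10632 gained and 3 of 5676 kept distal peaks. KLF words (CCACACCC, CCACGCCC, CCCCACCC and CCCCGCCC) did not set gained peaks apart from kept ones in this way. They were found in 12.1% of gained and 14.0% of kept day 10 peaks, a difference of −1.87 points (−2.97 to −0.784), with 4.65% and 6.75% beside them. That difference was −3.11 points in 400 bp windows, −7.86 over whole peaks and −3.96 in the higher-scoring 50% of each list. The shares beside the peaks differed in the same direction, as did GC content (42.7% in gained and 48.8% in kept peaks). Gained distal peaks were also narrower, with a median of 535 bp against 585 bp. The part of base composition and width in the KLF difference was not tested. An octamer, SOX or KLF match was found in 30.6% of gained and 24.1% of kept day 10 peaks, against 12.5% of lost and 21.5% of kept MEF peaks.

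Read the other way round, the word in a MEF site went with its outcome. Distal MEF peaks with an AP-1 match were lost in 87.3% of cases (86.6% to 88.1%), and those without in 80.6%. With a KLF match 65.8% were lost (63.8% to 67.8%), and with a match to the CTCF motif 58.5% (54.0% to 62.9%). CTCF is the insulator protein, which occupies many of its sites in most cell types. Distal day 10 peaks with an octamer match were gained in 82.0% of cases (78.7% to 84.8%), with a SOX match in 75.9% (74.2% to 77.6%) and with a CTCF match in 22.7% (18.1% to 28.0%). Promoters gave the same order as distal sites for AP-1 in MEF peaks, at 15.2% of lost and 2.53% of kept ones, and for SOX in day 10 peaks, at 12.6% of gained and 4.19% of kept ones. The opposite order was found for AP-1 in day 10 promoter peaks, at 4.37% of gained and 2.23% of kept ones. It was also found for SOX in MEF peaks, at 5.70% of lost and 4.07% of kept promoter peaks against 6.48% and 8.89% at distal sites. Lost and kept promoter peaks also differed in base composition, as given above.

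**Figure D3:**
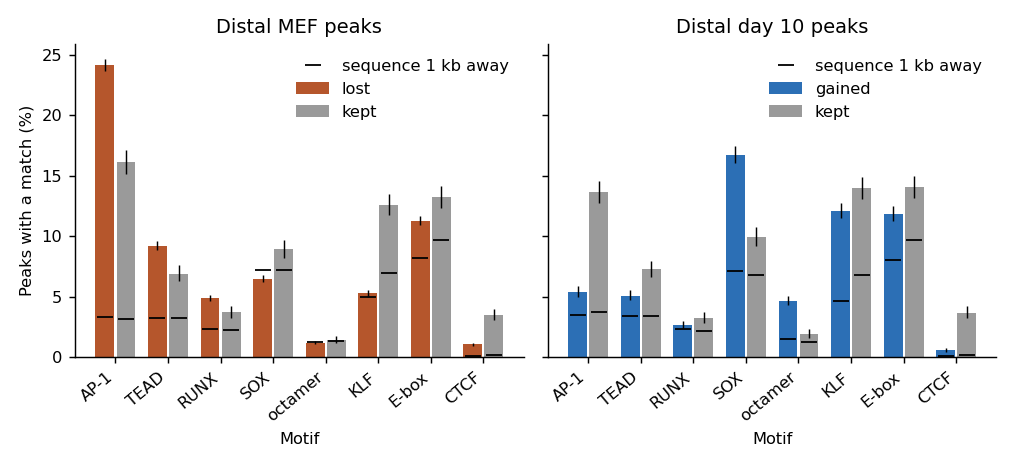
Share of distal peaks with a motif match in the 200 bp around the midpoint (y axis, %) for 8 motifs (x axis), in lost and kept MEF peaks (left) and in gained and kept day 10 peaks (right). Bars on the columns are 95% Wilson intervals and black dashes the share in windows 1 kb away. AP-1 stands at 24.1% in lost and 5.40% in gained peaks, and SOX at 6.48% and 16.7%.

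The day 5 and ESC lists, which did not enter the calls, placed these sites in time. Lost sites were mostly absent by day 5. Of the lost peaks, 93.9% had no day 5 peak (93.6% to 94.1%), against 15.5% of the kept MEF peaks. A gained site was often open by day 5 and less often open in ESCs. Of gained peaks 65.6% (64.9% to 66.4%) overlapped a day 5 peak and 25.01% (24.3% to 25.7%) an ESC peak, against 84.8% and 73.4% of kept day 10 peaks. The gained peaks divided into 49.5% in the day 5 list only, 16.1% in both lists, 8.87% in the ESC list only and 25.5% in neither. The share shared with ESCs was higher at promoters (35.4%, 32.8% to 38.0%) than at distal sites (23.2%, 22.4% to 24.0%). Kept day 10 peaks had the same order, with 89.6% at promoters and 43.5% at distal sites. Among lost sites an ESC peak was found at 26.7% of promoter peaks (25.3% to 28.1%) and 7.46% of distal peaks (7.15% to 7.79%), so that these sites were open in the fibroblasts and in ESCs but were not listed at day 10. Among kept MEF peaks the shares were 89.6% and 43.2%. In gained distal peaks, a SOX match was found in 20.5% of those shared with ESCs (19.0% to 22.2%) and in 15.6% of the others (14.8% to 16.4%), while the octamer shares were 4.78% and 4.63%. In lost distal peaks, an AP-1 match was found in 13.9% of those shared with ESCs and in 24.9% of the others. ESCs were cultured in other media than the day 10 cells, and the part of the medium in these shares was not tested.

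**Figure D4:**
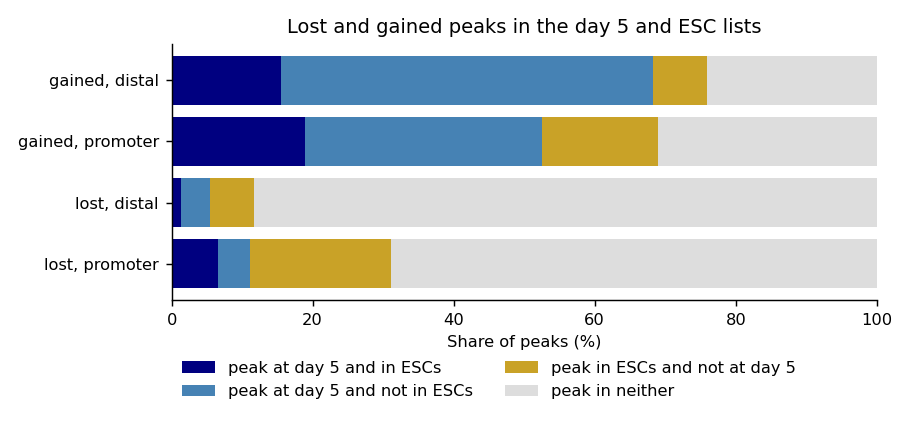
Share of lost MEF peaks and gained day 10 peaks (x axis, %) that also overlap a peak at day 5, in ESCs, in both or in neither, at promoters and distal sites (rows). The largest segment is "neither" for lost peaks (68.8% at promoters, 88.3% at distal sites), and day 5 without ESCs for gained peaks (33.6% and 52.7%).

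Each peak was next given to the protein-coding gene with the nearest start site, which is a rule of position and not a measured target. Of 21853 genes, 10587 had a lost peak, 6572 a gained peak and 5142 both. More lost than gained peaks were found at 8669 genes (39.7% of all genes) and more gained than lost at 2126 (9.73%). Equal numbers were found at 1222 genes, and 9836 genes had neither. These shares of all genes count the 9836, so they are not a like-for-like background for lists with few such genes. At least 10 lost peaks fell to 718 genes, and at least 10 gained peaks to 88. The genes with most lost peaks were Auts2 (37 of 46 MEF peaks), Pde4d (36 of 53), Trib2 (34 of 37), Zeb2 (33 of 40), Rbms3 (32 of 35), Tenm3 (32 of 41), Adgrl2 (31 of 36), Nfib (31 of 38), Rbfox1 (30 of 30), Flrt2 (30 of 33), Klf6 (30 of 37) and Foxp1 (30 of 39). Zeb2 encodes a repressor of epithelial genes, and Nfib, Klf6 and Foxp1 encode other transcription factors.

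The genes with most gained peaks were Efna5 (20 of 25 day 10 peaks), Tbl1xr1 (19 of 23), Adgrl2 (19 of 24), Tenm4 (19 of 32), Robo2 (18 of 21), Mef2c (18 of 27), Sema6d (17 of 20), Magi2 (17 of 23), Zfhx3 (17 of 28), Adgrl3 (16 of 18), Sel1l (16 of 18) and Zeb2 (16 of 23). Efna5 encodes an ephrin ligand, Robo2 a guidance receptor and Sema6d a semaphorin. Adgrl2 and Zeb2 were in both sets of 12. Mef2c, a transcription factor of muscle and other lineages, differed from the rest in that 3 of its 12 MEF peaks were lost. All of these genes are nearest to long stretches of DNA, from 804 kb for Nfib to 3293 kb for Adgrl3, whereas the median gene was nearest to 46.3 kb. Per 100 kb, Nfib had 3.85 lost peaks, Foxp1 3.30, Klf6 3.09 and Flrt2 0.938, against 1.35 over all genes, and Foxp1 had 1.65 and Mef2c 1.40 gained peaks, against 0.545.

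Of 1207 genes with at least 10 MEF peaks, 48 lost all of them, and 15 of these 48 had no day 10 peak assigned at all. They were Dynlrb2, Ednra, Fam19a5, Gm10181, Kcnmb2, Khdc1b, Nell2, Nmbr, Ntf3, Ntrk3, Pappa2, Pkhd1, Rspo2, Slc44a3 and Tmem30b, and were singled out after their values were seen. A day 10 peak assigned to another gene still lay at the promoter of Nmbr. Ednra, the receptor for endothelin, lost 13 of 13 peaks. Nell2 lost 12 of 12. Ntf3 and Ntrk3, which encode the neurotrophin NT-3 and its receptor TrkC, each lost 10 of 10, as did Rspo2, which encodes an activator of WNT signalling.

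Lost peaks also lay in long uninterrupted runs, counted as neighbouring MEF peaks with no kept one between them. Runs of at least 10 lost peaks numbered 600 and held 23.2% of lost peaks, while 47 such runs of gained peaks held 4.00% of gained peaks. Run length rises with the share of a list that is called, here 63.3% of MEF and 41.1% of day 10 peaks. The contrast was not corrected for this. The longest lost run had 38 peaks over 873 kb of chromosome 6 (chr6:116694333-117567415), and 28 of these were nearest to Cxcl12, which encodes a chemokine secreted by stromal cells. The next had 37 peaks over 3106 kb of chromosome 13 around the prolactin gene cluster, 33 over 2796 kb of chromosome 16 (30 of them at Rbfox1), 31 over 1006 kb of chromosome 11 (20 at Ebf1, a transcription factor gene of B cells and mesenchymal cells) and 30 over 1225 kb of chromosome 15 between Gsdmc and Myc, in a stretch that holds no coding gene. The 5 longest gained runs had 20 peaks on chromosome 12 (16 at Sel1l), 19 on chromosome 18 (12 at Prr16), 18 on chromosome 13 (9 at Hdgfl1), 17 on chromosome 6 (15 at Cntnap2) and 16 on chromosome 1 (11 at Dpp10). In the stretches of these gained runs lay 5 to 25 peaks of the MEF list that were lost. In those of the 5 longest lost runs lay 4 to 17 day 10 peaks that were gained. The lost and the gained run on chromosome 13 overlap.

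A promoter peak, within 1 kb of a start site of a coding transcript, was present in MEFs at 63.5% of genes and at day 10 at 59.1%. Between MEFs and day 10 alone, it was in MEFs only at 1257 genes (5.75%) and at day 10 only at 293 (1.34%). It was kept at 12618 of the 13875 genes with a MEF promoter peak. A promoter peak called MEFs only here and below can still be present at day 5 or in ESCs. Among genes with a promoter peak in MEFs only, 52.5% had one in ESCs, and among those with one at day 10 only, 47.4%. Both shares were below the 93.8% of genes with a kept promoter peak. The lost promoter peaks of highest score were those of Olfr1438-ps1 (score 266), Krtap1-5 (250), Adgra1 (240), Specc1 (237), Zdhhc1 (212), Ifi211 (211), Olfr957 (202), Tlr4 (201), Bicc1 (200) and Med15 (196). Tlr4 encodes the receptor for bacterial lipopolysaccharide and Ifi211 an interferon-inducible protein. A gene can have several start sites, and Specc1, Zdhhc1, Bicc1 and Med15 still had another promoter peak at day 10. The promoter peaks gained with the highest scores were at Gm10801 (6202) and Gm10722 (217), where the peaks are 34.0% and 100% repeat-masked and reads can come from other copies, followed by Ankrd6 (173), Slc6a6 (153), 2310057N15Rik (149), Arrdc3 (133), Adap1 (131), Cpsf4l (129), Stk38 (124) and Tle6 (123). Ankrd6, Slc6a6, Arrdc3 and Stk38 already had another promoter peak in MEFs. Slc6a6 encodes the taurine transporter and Tle6 a protein of the oocyte and early embryo. All 10 gained peaks overlapped a day 5 peak, and 8 of the 10 an ESC peak, against 52.5% and 35.4% of all gained promoter peaks. Of the 10 lost peaks, those of Specc1 and Tlr4 overlapped a day 5 peak and that of Adgra1 an ESC peak. Among all lost promoter peaks the shares were 11.1% and 26.7%.

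The fibroblast programme was described with gene lists, each read against all distal peaks (82.2% lost and 65.2% gained) because lists differ in how many promoter peaks they hold. At the 26 genes of collagen and matrix, 204 of 251 MEF peaks were lost, and 164 of 187 distal ones (87.7%, 82.2% to 91.7%), while 23 of 46 distal day 10 peaks were gained (50.0%, 36.1% to 63.9%). Lost peaks outnumbered gained ones at 24 of the 26 genes (39.7% of all genes, of which 9836 of 21853 had neither) and gained ones at 0. Tnc (tenascin C) lost 23 of 25 peaks, Thbs1 (thrombospondin) 22 of 24, Col5a1 (a fibrillar collagen) 16 of 17 and Postn (periostin) 11 of 11. A promoter peak was present in MEFs and not at day 10 at 4 of the 26, namely Col6a3, Fbln1, Loxl1 and Postn (5.75% of all genes). Fbln1 and Loxl1 had one in ESCs. Promoter peaks were kept at 21 of the 25 genes with one in MEFs, Col1a1 and Col1a2 among them. Over all genes they were kept at 12618 of 13875. Col3a1 lost 10 of 12 peaks and Col1a1 5 of 8, and both kept their promoter peak.

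At the 20 fibroblast transcription factor genes 103 of 119 distal MEF peaks were lost (86.6%, 79.3% to 91.6%) and 30 of 46 distal day 10 peaks gained (65.2%, 50.8% to 77.3%). Both shares were near those of all distal peaks. Lost peaks outnumbered gained ones at 13 of the 20 genes (39.7% of all genes) and gained ones at 2 (9.73%), while Snai2 and Foxc2 had neither. Of all 21853 genes 9836 had neither, so these shares are not a like-for-like background. Tbx18, a T-box factor of mesenchyme, lost 17 of 19 peaks, Osr1 11 of 14, Zeb1 10 of 13, Prrx1, a limb mesenchyme homeobox factor, 9 of 11 and Twist2 8 of 11 with 0 gained. Twist1 lost 2 of 5 and gained 2 of 5, Foxf2 lost 1 of 3, and Snai2 and Foxc2 each lost none of 1. Promoter peaks were kept at 18 of the 19 genes with one in MEFs (12618 of 13875 over all genes) and present in MEFs only at Meox1. The 2 genes with more gained peaks were Tbx15, with 6 of 9 MEF peaks lost and 7 of 10 day 10 peaks gained, and Nfatc4, with none of 2 lost and 1 of 3 gained.

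Contractile genes lost 54 of 64 distal peaks (84.4%, 73.6% to 91.3%), and 10 of their 21 distal day 10 peaks were gained (47.6%). Promoter peaks of Cnn1 (calponin), Lmod1 (leiomodin) and Tpm2 (a tropomyosin) were present in MEFs and not at day 10. These 3 of the 16 genes (5.75% of all genes) encode parts of the smooth muscle contractile apparatus. Promoter peaks were kept at 12 of the 15 genes with one in MEFs (12618 of 13875 over all genes), Acta2, Tagln and Myl9 among them. Tpm2 had a promoter peak at day 5 and Lmod1 one in ESCs. Palld lost 20 of 24 peaks and Actn1 9 of 11, whereas Acta2 (smooth muscle actin) lost 1 of 3 and Tagln (transgelin) none of 1. At the 18 genes of the TGF-beta pathway 120 of 153 distal peaks were lost (78.4%, 71.3% to 84.2%), and 39 of 72 distal day 10 peaks were gained (54.2%). For both lists the interval of the lost share includes that of all distal peaks (82.2%). The ligand gene Tgfb2 lost 13 of 18 peaks, the activin subunit gene Inhba 26 of 31, the receptor gene Tgfbr2 15 of 21, the signal transducer gene Smad3 15 of 18 and the inhibitor gene Smad7 16 of 24. Smad2 lost 4 of 9, Tgfbi 2 of 6 and Tgfb1 none of 1. Ltbp2 encodes a binding protein of the latent ligand. It alone of the 18 genes had a promoter peak in MEFs and none at day 10 (5.75% of all genes). It had one at day 5 and in ESCs.

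Genes of AP-1, TEAD and RUNX factors were listed too, with the related or partner genes Maff, Yap1, Wwtr1 and Cbfb. Of distal MEF peaks at the 20 genes of this list, 73 of 100 were lost (73.0%, 63.6% to 80.7%). Of their distal day 10 peaks 21 of 48 were gained (43.8%, 30.7% to 57.7%). Both intervals lie below the shares of all distal peaks. Fos, an early response gene, lost 2 of 8 peaks, Fosb 1 of 6, and Junb, Jund and Maff none of 1, 1 and 3. Fosl2 lost 13 of 14, Runx1 21 of 28 and Runx2 17 of 22. Promoter peaks were kept at 19 of the 20 (12618 of 13875 over all genes with a MEF promoter peak), and that of Runx3 was in MEFs only.

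**Figure D5:**
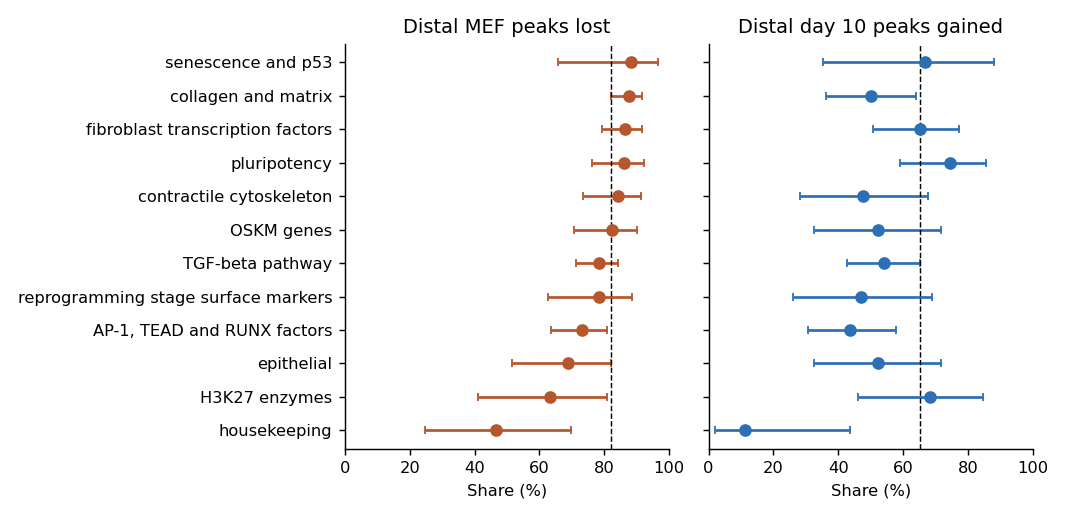
Share of distal MEF peaks lost (left) and of distal day 10 peaks gained (right), in % on the x axes, for 12 gene lists (rows). Bars are 95% Wilson intervals and the dashed lines mark all distal peaks (82.2% and 65.2%). The intervals of AP-1, TEAD and RUNX factors (73.0% and 43.8%) and of housekeeping genes (46.7% and 11.1%) lie below the line on both sides.

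Epithelial and pluripotency genes showed both loss and gain. Epithelial genes are switched on when fibroblasts lose their mesenchymal form early in reprogramming. At the 24 genes of this list 22 of 32 distal MEF peaks were lost (68.8%, 51.4% to 82.0%) and 11 of 21 distal day 10 peaks gained (52.4%, 32.4% to 71.7%). Lost peaks outnumbered gained ones at 10 of the 24 genes (39.7% of all genes), gained ones at 3 (9.73% of all genes), and 11 had as many of each or none (1222 and 9836 of all 21853 genes). The 3 were Dsp and St14, a membrane protease gene, each with 2 gained of 3 day 10 peaks and none of 1 MEF peak lost, and Krt8 (a keratin), with 2 gained of 4 and 1 lost of 3. Tjp1, which encodes a tight junction protein, lost 10 of 13 peaks, Grhl2, an epithelial transcription factor gene, 4 of 5, and the keratin genes Krt7 and Krt18 each 2 of 2. Epcam had 1 gained peak of 4 and 1 lost of 4. Cdh1, the E-cadherin gene, had 1 lost and 1 gained peak of 2 in each list and no promoter peak in either, although day 5 and ESCs had one. No promoter of the list had a peak at day 10 only (1.34% of all genes). Those of Krt19 and Ovol1 had one in MEFs and not at day 10, 2 of the 24 (5.75% of all genes). Krt19 had one in ESCs.

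At the 28 pluripotency genes 62 of 72 distal MEF peaks were lost (86.1%, 76.3% to 92.3%) and 29 of 39 distal day 10 peaks gained (74.4%, 58.9% to 85.4%). Both intervals include the shares of all distal peaks. Gained peaks outnumbered lost ones at 9 of the 28 genes (9.73% of all genes, of which 9836 of 21853 had neither) and lost ones at 11 (39.7%). Otx2 had 5 gained of 5 day 10 peaks, Tfcp2l1 5 of 7, Mycn 6 of 9 and Sall1 4 of 9. Klf5 lost 10 of 12 MEF peaks, Tbx3 11 of 12 with 0 gained, and Esrrb, a nuclear receptor of naive pluripotency, 6 of 6 with no day 10 peak. A promoter peak appeared at day 10 only at Tdh, 1 of the 28 (1.34% of all genes), which encodes the threonine dehydrogenase of mouse ESCs and whose promoter was also open in ESCs and not at day 5. The promoters of Esrrb, Fgf4, Nodal and Otx2 had a peak in MEFs and not at day 10, 4 of the 28 (5.75% of all genes). All 4 had one in ESCs, and Nodal also had one at day 5. Promoter peaks were kept at 13 of the 17 genes with one in MEFs (12618 of 13875 over all genes). Nanog, Dppa2, Dppa4, Dppa5a, Gdf3, Prdm14 and Zfp42 had a promoter peak in ESCs and in neither MEFs nor day 10 cells. The share of all genes with this pattern was not computed.

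Housekeeping genes, listed for comparison, lost 9 of 33 peaks and gained 3 of 28. They kept 12 of 12 promoter peaks, against 12618 of 13875 over all genes with one in MEFs. Genes of senescence and p53 kept 10 of 10. Of their distal day 10 peaks 6 of 9 were gained (66.7%, 35.4% to 87.9%, against 65.2% of all). Lost peaks outnumbered gained ones at 4 of these 10 genes (39.7% of all genes) and gained ones at 2 (9.73%). Cdkn1a, the p21 gene, was 1 of the 2, with 4 gained of 6 day 10 peaks and 2 lost of 4. At the 10 genes listed for histone H3K27, 12 of 19 distal MEF peaks were lost (63.2%, 41.0% to 80.9%, against 82.2% of all). Of their distal day 10 peaks 13 of 19 were gained (68.4%, 46.0% to 84.6%, against 65.2%). Lost peaks outnumbered gained ones at 6 of the 10 (39.7% of all genes) and gained ones at 1 (9.73%). That 1 was Jarid2, a partner of the Polycomb complex, which had 12 gained of 18 day 10 peaks and lost 6 of 12. At the 10 surface marker genes used to stage reprogramming, 29 of 37 distal MEF peaks were lost (78.4%, 62.8% to 88.6%, against 82.2% of all). Thy1, a fibroblast marker, lost 8 of 9 peaks including its promoter peak, and Cd44 lost 11 of 14. Cd34 lost 5 of 11, and Icam1, Alpl and Fut4 each lost none of 1. Promoter peaks were kept at 8 of the 9 genes with one in MEFs. Of the reprogramming factor genes, Pou5f1 had a promoter peak at day 10 and none in MEFs. The peak over the body of Klf4 ranked 24688 in MEFs and 17 at day 10, that of Sox2 38051 and 169, and that of Myc 16023 and 724. The retroviral cDNAs and the OG2 reporter carry the same sequences, so reads from the vectors and from the genes cannot be told apart, and these peaks are not given as a change of the genes.

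The labels were checked against promoter peaks of cell type markers. Over all genes, 63.5% had one in MEFs and 59.1% at day 10. Fibroblast markers had one at 11 of 11 genes in MEFs, at 10 of 11 at day 10, all but Thy1, and at 5 of 11 in ESCs. Pluripotent cell markers had one at 4 of 8 genes in MEFs, 2 of 8 at day 10 (Tdgf1 and Utf1) and 8 of 8 in ESCs, so 6 of the 8 defining markers of pluripotent cells had none at day 10. Markers of other cell types had a promoter peak at 3 of 6 endothelial, 1 of 6 haematopoietic, 3 of 6 neural and 0 of 6 skeletal muscle genes in both lists, and at 0 of 6 keratinocyte genes in MEFs and 1 of 6 at day 10. That one was Trp63. In ESCs the counts were 3, 1, 3, 1 and 0 of 6, in the same order.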

How the data were processed

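ATAC-seq had been made from 50000 cells per library, 2 libraries per group. Per the labels, the authors mapped reads to mm10 with Bowtie2 (2.2.0 in the submitters' processing notes) in its very sensitive mode and removed mitochondrial reads and those without a unique position. The peak caller and any transposase shift are not given in the sources used here, and labels and methods give different mapping quality thresholds. The deposited lists hold, per peak, a score, a fold enrichment (a ratio), a −log10 p-value (not used) and a −log10 q-value. Their names point to replicate 1 peaks intersected with replicate 2. They carry no read counts, so depth is unknown. The score ranks peaks, and the −log10 q-value was used to check it. Other columns of samples from elsewhere numbered 0.

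Overlaps, distances to 132629 start sites of GENCODE mouse release M21, base composition and motif matches on the GRCm38 sequence were computed in Python 3.11.15 (pandas 2.3.3, numpy 2.4.6), with the code checked on simulated intervals. No test was run, since each group had 1 list. Genes were named by 5 rules: the 12 with most lost and most gained peaks, the 10 strongest promoter peaks and the 5 longest runs each way, the members of 12 gene lists, and for sequences the highest-scoring motif-bearing distal peaks of list genes (one of these items is not reported here). Cell type markers were named to check the labels, and the 15 genes that lost all peaks and had no day 10 peak assigned after their values were seen. The members, lists and rules were chosen with earlier results of these data known. Alternatives were the overlap rule, peak strength, repeats, sex chromosomes, promoter width, start sites and motif window.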

Additional observations from a re-analysis of the deposited data

How the results depend on the processing

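No paired analysis was possible because each group had 1 deposited list with its libraries merged, and for the same reason neither library could be left out. No difference changed sign under any alternative. Of 80 values under alternatives, 44 fell outside the 95% interval of the value in the report and 36 inside.

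Requiring 50% of both peaks to be shared gave a lost share of 71.7% and a gained share of 54.6%, with 55.7 points between distal and promoter loss, 95.01% of lost peaks absent at day 5 and 17.8% of gained peaks in ESCs. Allowing a gap of 400 bp gave 62.8% lost, 40.2% gained, 55.2 points between distal and promoter gain, 93.6% absent at day 5 and 25.8% in ESCs. With the highest-scoring MEF peaks, as many as at day 10, these were 50.5% lost, 50.3% gained, 64.1 points for loss, 59.6 for gain, an AP-1 difference of 10.2 points, 92.4% absent at day 5 and 29.5% in ESCs. The higher-scoring 50% of each list gave 58.6% lost, 33.6% gained, 63.1 and 65.0 points, a KLF difference of −3.96 points, 94.4% and 22.4%. Without peaks at least 50% repeat-masked, 62.9% were lost, 39.8% gained and 23.1% of the gained shared with ESCs.

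The distal minus promoter differences in loss and gain were 63.4 and 58.1 points with promoters of 500 bp, 42.8 and 44.9 with promoters of 5 kb (all other peaks distal), and 67.3 and 58.3 with start sites of coding transcripts only. In 400 bp windows the AP-1, octamer, SOX and KLF differences were 11.4, 3.81, 9.22 and −3.11 points, and over whole peaks 6.77, 3.85, 8.02 and −7.86. Averages within score strata, chosen after seeing the data, were 42.0 and 48.1 points for position over deciles and 10.6 points for AP-1 over quintiles. The cause of these shifts was not tested beyond each setting's own construction.

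With no read counts and 1 list per group, neither the spread between libraries nor depth could be weighed, and a site just under the caller's threshold counts as lost. Genes with a lost peak numbered 10276 and those with a gained peak 6015 when only peaks within 100 kb of the start site were used.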
